A study of Rattus norvegicus with 20 samples.

Results

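Liver transcripts were compared between rats that carry the variant *Ahr* allele and rats with wild-type *Ahr*. The comparison set the mean of 2 carrier groups, H/W and Line-A (8 arrays), against the mean of 3 wild-type groups, L-E, Line-C and S-D (12 arrays), so that all 20 arrays of the series took part and each group had the same weight on its side. All rats were males aged 10 to 12 weeks that were killed 19 h after corn oil by gavage, except that the S-D labels name the rats only as controls, and each array held the liver RNA of 1 rat, with 4 rats in each group. H/W is a closed colony of a Wistar sub-strain, L-E an inbred Long-Evans sub-strain and S-D the out-bred Sprague-Dawley strain. Line-A and Line-C were bred from L-E by H/W crosses, Line-A with the variant allele and Line-C with the wild-type one. The carriers are therefore only 2 populations, and Line-A shares ancestry with H/W and with L-E, so the allele cannot be told apart from other loci that H/W and Line-A share. With the population as the unit, 2 against 3 groups can be arranged in 10 ways, and no exact test over groups could go below p = 0.1.

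AHR is a ligand-activated transcription factor that pairs with ARNT and switches on genes of xenobiotic metabolism, such as *Cyp1a1*. The H/W form of the receptor has an altered transactivation domain, and rats that carry it resist the acute lethality of dioxins. The samples here had received no dioxin, so the comparison asks which transcripts differ with the allele in the absence of such a ligand.

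Values were log2 GC-RMA signals of 15923 ProbeSets on RAE230A arrays, and 7168 ProbeSets reached a mean signal of 4, the limit taken for expression. Array medians lay between 3.47 and 3.69. The arrays fell on 5 scan days. All Line-A and Line-C arrays shared a day that held no other group. All S-D arrays had a day of their own, with another operator, so S-D cannot be told apart from its scan day and operator. H/W and L-E arrays were scanned on the other days and came from other chip lots than the lines. A difference of H/W or L-E from Line-A or Line-C thus cannot be told apart from scan day and chip lot either. H/W replicate 3 stood apart: for ProbeSets with a mean under 4 its median was 2.56 against 2.59 to 2.73 on the other 19 arrays, and it was the lowest H/W array for 90.9% of them. The median SD among H/W arrays of these ProbeSets was 0.065 with it and 0.019 without it. H/W replicate 3 was also the only array with station 2 in its header, and the part of the station was not tested.

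In the limma fit 676 ProbeSets, 4.25% of those tested, differed between carriers and wild-type groups at 5% FDR (Benjamini-Hochberg adjustment over all ProbeSets). Of these 276 were higher in carriers (1.73% of all ProbeSets) and 400 lower (2.51%). The differences were small: the median size was 0.40 on the log2 scale, 495 ProbeSets (73.2%) changed by under 1.5-fold and 57 by at least 2-fold. This count depended on H/W replicate 3. Without that array 7851 ProbeSets were called, but 6067 of them had a mean under 4 and a median difference of 0.053, and 5986 of those 6067 were higher in carriers. Among ProbeSets with a mean of at least 4, fitted alone, 801 were called with the array and 1051 without it, the latter a setting chosen after the data had been seen. With each array set to the same median, the split of calls moved from 276 higher and 400 lower to 151 higher and 544 lower.

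Most of the 676 calls rested on some of the groups. The 6 pairs of a carrier and a wild-type group share arrays, so they are not independent, and their calls are given side by side. Of the 676 ProbeSets, 532 were also called between Line-A and S-D, 406 between Line-A and L-E, 381 between H/W and S-D, 205 between H/W and L-E, 117 between H/W and Line-C and 105 between Line-A and Line-C, each in the direction of the contrast. The pairs of Line-A with L-E and S-D had 4378 (27.5%) and 5966 (37.5%) calls over the whole array, of which 2246 and 3668 lay under the expression limit. H/W with S-D had 1087 calls (6.83%) and H/W with Line-C 620 (3.89%). Neither Line-A with L-E or S-D nor H/W with S-D or Line-C shared a scan day. In 376 of the 676 ProbeSets at least 1 pair had the opposite sign, and in 300 (44.4%) all 6 pairs had the same sign, against 10.5% of all ProbeSets. The contrast is the mean of these 6 differences, so a call on it favours pairs of 1 sign by construction. The higher share is therefore not separate evidence.

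**Figure D1:**
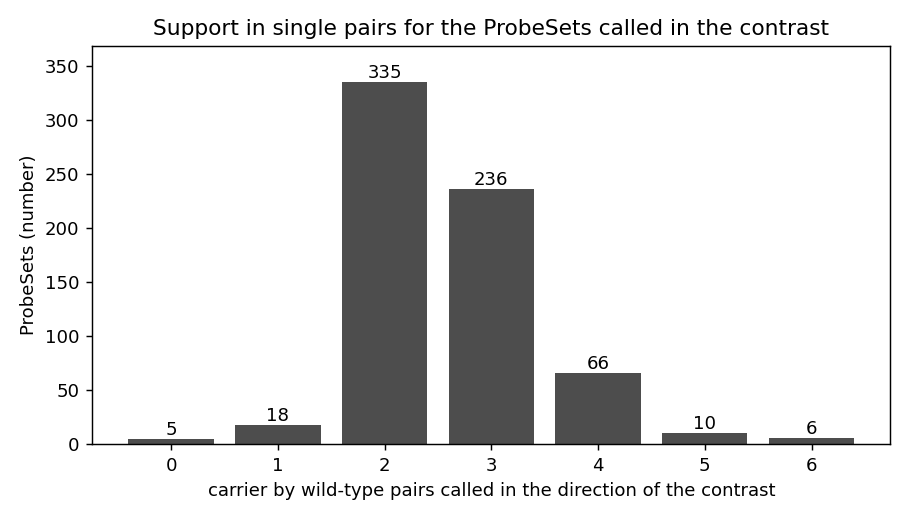
Number of ProbeSets (vertical axis) among the 676 called in the contrast, by how many of the 6 carrier by wild-type pairs were themselves called at 5% FDR in the direction of the contrast (horizontal axis). Most ProbeSets had support in 2 or 3 pairs (335 and 236), 10 in 5 pairs and 6 in all 6.

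Only 6 ProbeSets (0.0377% of 15923) were called in all 6 pairs in 1 direction. *Sqor* and *Ctsh* (0.0126%) were higher in both carrier groups than in every wild-type group. *Cyp2c12*, *Hfe*, *Slco1b2* and an unnamed ProbeSet, 1375230_at, were lower (0.0251%). Adjusting the largest of the 6 p-values over all ProbeSets left only *Sqor*, and *Ctsh* and *Hfe* were the 2 of the 6 with no call between H/W and Line-A (6.39% of all ProbeSets) or among L-E, Line-C and S-D (15.8% for L-E against Line-C, 9.59% for L-E against S-D and 12.2% for Line-C against S-D).

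*Sqor*, the mitochondrial sulfide:quinone oxidoreductase that begins the oxidation of hydrogen sulfide, had the clearest separation. Its log2 signals were 10.21, 10.63, 10.54 and 10.55 in H/W and 10.25, 9.96, 10.01 and 9.89 in Line-A. They were 7.02, 7.06, 6.77 and 7.19 in L-E, 7.12, 7.30, 7.37 and 7.56 in Line-C and 8.45, 8.28, 8.22 and 8.66 in S-D. Every carrier array lay above every wild-type array, and S-D lay between the carriers and the other wild-type groups. The carrier difference was 2.67 ± 0.08 (SE), a 6.38-fold higher signal (limma adjusted p = 8.98e-13), and the smallest of the 6 pair differences was 1.63. *Sqor* held in all 6 pairs whichever single array was left out.

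*Hfe*, the MHC class I-like protein that takes part in iron sensing, was lower in carriers by 0.68 on the log2 scale (1.60-fold, limma adjusted p = 0.000158). Its signals were 7.50, 7.50, 7.97 and 7.81 in H/W and 7.50, 7.83, 7.73 and 7.61 in Line-A, against 8.46, 8.39, 8.14 and 8.62 in L-E, 8.46, 8.14, 8.42 and 8.61 in Line-C and 8.04, 8.42, 8.32 and 8.26 in S-D. The arrays of carriers and wild-type groups did not overlap, as for 11 ProbeSets (0.0691%) on the array, and *Hfe* also held in all 6 pairs whichever array was left out. With scan day as a random block, *Sqor* and *Slco1b2* held, while *Hfe* (largest pair limma adjusted p = 0.0737), *Cyp2c12* (0.163), *Ctsh* (0.182) and 1375230_at (0.155) did not. *Slco1b2*, a sinusoidal uptake transporter for bile acids and other organic anions, was lower by 0.63 (1.55-fold, limma adjusted p = 3.06e-06). Its carrier arrays ran from 11.36 to 12.12 and its wild-type arrays from 12.22 to 12.57. The groups did not overlap, but Line-A stood closer to the wild-type groups than H/W did, and the Line-A minus Line-C difference was -0.38. *Slco1b2* lost the call in some pair without Line-A replicate 1, 2 or 4 or Line-C replicate 1, 2 or 4. A further *Slco1b2* ProbeSet, 1369746_a_at, was called lower in the contrast (-0.68, limma adjusted p = 0.00214) but in 3 pairs only.

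*Cyp2c12*, a steroid-metabolising P450 that is female-predominant in rat liver, showed the largest fold among the 6. Its signals were 7.17, 6.32, 6.16 and 6.20 in H/W, and 6.53, 9.02, 9.63 and 6.53 in Line-A. They were 11.02, 11.53, 11.02 and 10.94 in L-E, 11.12, 12.09, 12.70 and 11.25 in Line-C and 10.17, 9.32, 10.24 and 9.48 in S-D. Line-A replicates 2 and 3 lay far above the other Line-A rats, and replicate 3 reached the range of S-D. The mean difference was -3.71 ± 0.38 (SE), 13.1-fold lower (limma adjusted p = 2.65e-05), and the call in some pair was lost without Line-A replicate 1 or 4 or S-D replicate 1, 2 or 3. *Ctsh*, the lysosomal protease cathepsin H, was higher in carriers by 0.55 (1.46-fold, limma adjusted p = 6.24e-05), with carrier arrays from 11.54 to 12.08 and wild-type arrays from 11.02 to 11.70. These ranges overlapped, and the call in all 6 pairs held in 8 of the 20 fits without 1 array, and not without H/W replicate 3. The unnamed 1375230_at was lower by 1.65 (limma adjusted p = 0.000107) near the expression limit, with group means of 4.18 in H/W and 4.12 in Line-A, and held in 3 of those 20 fits.

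**Figure D2:**
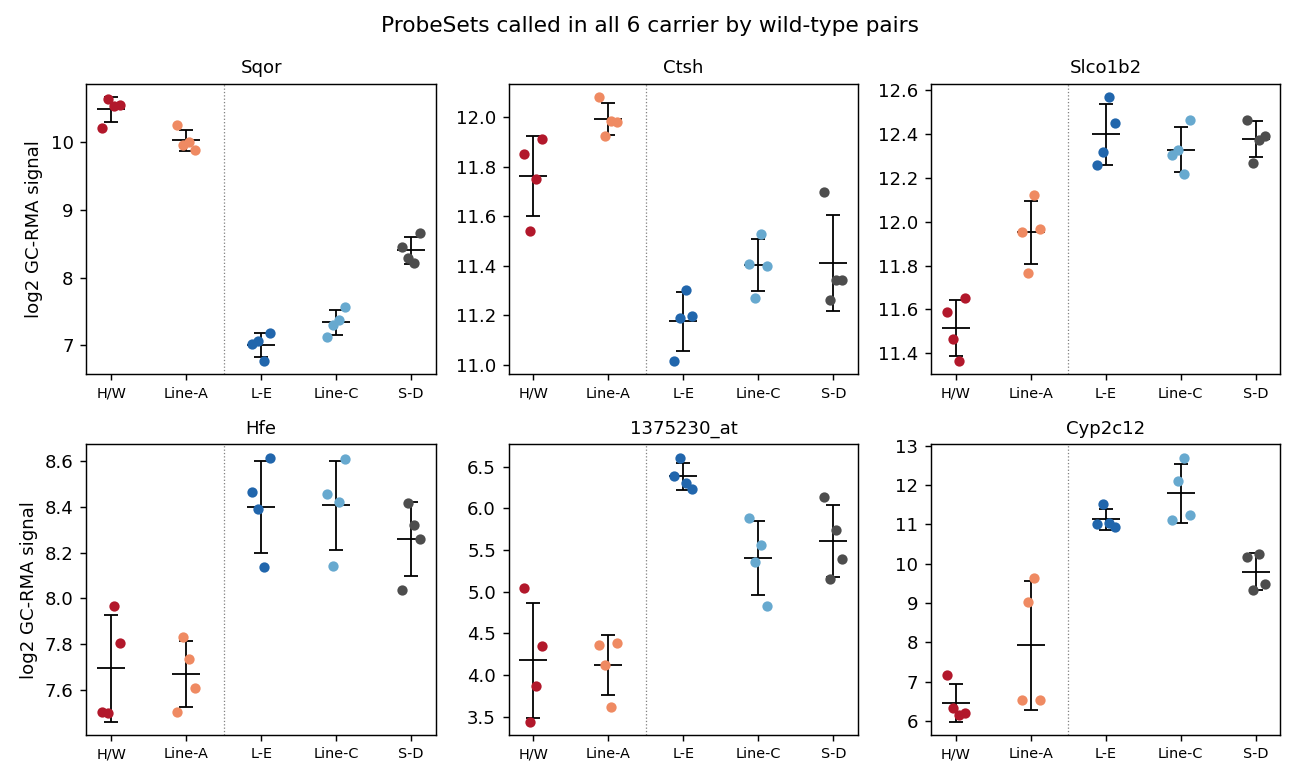
Log2 GC-RMA signal (vertical axes) of each array in the 6 ProbeSets called in all 6 pairs, by group (horizontal axes), with carriers left of the dotted line. Points are arrays, dashes group means and bars 1 SD (n = 4). *Sqor*, *Hfe* and *Slco1b2* do not overlap between carriers and wild-type groups, and Line-A is split in *Cyp2c12*.

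Fitting only ProbeSets with a mean signal of at least 4 brought the number held in all 6 pairs to 9, and leaving out H/W replicate 3 as well brought it to 11. Each set contained all 6 ProbeSets above. The further ones, named after their values were seen, were lower in carriers: *Dap*, *Gjb2* and *Map1lc3a* in both fits, and *Clec4f* and *Atp9a* in the fit without the array. *Gjb2*, the gap junction protein connexin 26, had group means of 8.39 in H/W and 8.42 in Line-A against 8.95, 8.86 and 9.33 in L-E, Line-C and S-D. *Map1lc3a*, an autophagosome membrane protein, had means of 7.95 and 7.91 against 8.44, 8.37 and 8.50.

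The promoters of the named genes among the 6 are shown because an AHR and ARNT pair binds the core letters GCGTG. Sequences were taken from RefSeq (GRCr8), from 250 bases before to 50 after the gene start, and that core was searched for on both strands. Capitals mark a match. They lie at chr3:130299981-130300280 (+ strand) for *Sqor*, chr8:99488506-99488805 (+ strand) for *Ctsh*, chr1:248676985-248677284 (- strand) for *Cyp2c12* and chr4:176282334-176282633 (+ strand) for *Slco1b2*. *Hfe* had no entry.
Sqor: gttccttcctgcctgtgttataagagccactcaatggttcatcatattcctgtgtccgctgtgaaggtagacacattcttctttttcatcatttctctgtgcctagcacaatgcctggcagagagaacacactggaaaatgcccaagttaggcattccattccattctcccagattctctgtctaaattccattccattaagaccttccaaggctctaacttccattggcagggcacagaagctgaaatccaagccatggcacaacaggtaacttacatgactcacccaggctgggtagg
Ctsh: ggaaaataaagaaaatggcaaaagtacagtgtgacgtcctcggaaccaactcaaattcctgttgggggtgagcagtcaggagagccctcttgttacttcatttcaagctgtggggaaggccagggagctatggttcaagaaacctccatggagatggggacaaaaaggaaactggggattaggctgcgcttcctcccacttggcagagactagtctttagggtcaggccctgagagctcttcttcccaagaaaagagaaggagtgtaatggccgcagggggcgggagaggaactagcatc
Cyp2c12: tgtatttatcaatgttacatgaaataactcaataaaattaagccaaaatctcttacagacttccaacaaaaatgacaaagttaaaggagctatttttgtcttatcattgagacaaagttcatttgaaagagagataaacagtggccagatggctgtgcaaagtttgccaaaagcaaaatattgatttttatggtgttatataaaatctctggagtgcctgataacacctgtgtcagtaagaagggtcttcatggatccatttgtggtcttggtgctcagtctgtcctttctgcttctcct
Slco1b2: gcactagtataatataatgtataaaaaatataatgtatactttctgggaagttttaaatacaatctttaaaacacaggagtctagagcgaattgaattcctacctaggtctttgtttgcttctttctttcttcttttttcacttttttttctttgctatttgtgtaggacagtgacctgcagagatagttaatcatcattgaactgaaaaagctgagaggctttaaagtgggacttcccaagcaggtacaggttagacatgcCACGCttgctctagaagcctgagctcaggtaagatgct
A match was present in *Slco1b2* and in none of the other 3. The core occurred in 29.7% of all 33469 promoters and in 46.0% of the 9467 promoters of genes on the array, and a match is a description of the letters, not a binding site.

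Leaving out the pairs of any wild-type group can only add transcripts. In the 4 pairs without S-D 18 ProbeSets (0.113%) were called in 1 direction, in those without L-E 15 (0.0942%) and in those without Line-C 50 (0.314%), the last 2 counts added after the data had been seen. Of the 10 ProbeSets called in the contrast and in 5 pairs, 6 missed Line-A minus Line-C, 1 missed H/W minus Line-C and 3 missed a pair with S-D (*Acat1*, *Agtr1a* on 1369291_at and *Atl2*). Of the 18 ProbeSets without S-D, 12 were not called in all 6 pairs, so each of the 12 missed a call against S-D in that direction. This rule largely fixes where S-D lies in the 18, and its position is given as a description only. In 11 of the 18, S-D lay nearer the carriers than L-E and Line-C. In 10 of the 11, all but *Atl2*, S-D differed from both L-E and Line-C towards the carriers. The largest was *Agtr1a*, the angiotensin II type 1a receptor. On 1384240_at its signals were 11.27, 11.14, 10.87 and 11.22 in H/W and 11.02, 10.58, 10.79 and 10.76 in Line-A, but 10.73, 10.76, 10.59 and 10.71 in S-D. L-E (4.07, 3.47, 3.50 and 3.12) and Line-C (3.96, 4.10, 3.96 and 3.59) sat about the expression limit. The second ProbeSet, 1369291_at, gave means of 9.39 and 8.51 in the carriers, 8.85 in S-D and 2.69 and 2.72 in L-E and Line-C. The contrast called both (4.91 and 4.19, limma adjusted p = 3.94e-15 and 1.96e-16), while the values separated L-E and Line-C from the other 3 groups, not carriers from wild-type groups. The means of L-E and Line-C lay under the expression limit on both ProbeSets, so the size of these differences depends on the background signal.

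*Marveld1*, a protein with a MARVEL domain, and *Bckdhb*, the E1 beta subunit of the branched-chain alpha-keto acid dehydrogenase, showed the same split of L-E and Line-C from the other 3 groups. *Marveld1* means were 6.89 in H/W, 8.46 in Line-A and 7.55 in S-D against 2.30 in L-E and 2.53 in Line-C. *Bckdhb* means were 10.58, 11.15 and 10.98 against 9.29 and 9.57. *Rab14*, a small GTPase of endosomal traffic, did so on 2 ProbeSets (1385314_at and 1376796_at), whereas 1367884_at and 1375687_at of the same gene were not called in the contrast. *Acat1*, the mitochondrial acetyl-CoA acetyltransferase, was the exception among the 12: S-D (10.69) lay nearer L-E (10.56) and Line-C (10.58) than H/W (10.91) and Line-A (11.17).

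**Figure D3:**
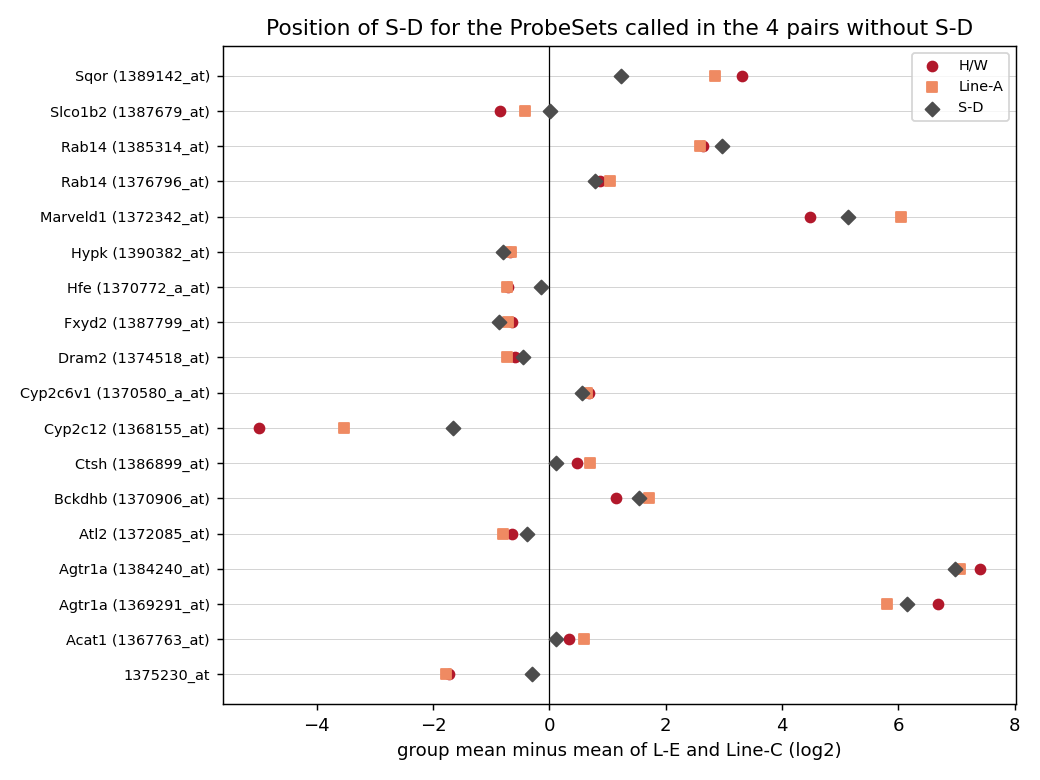
Group mean minus the mean of L-E and Line-C (horizontal axis, log2) for the 18 ProbeSets called in the 4 pairs without S-D (vertical axis). Circles are H/W, squares Line-A and diamonds S-D. In 11 ProbeSets the S-D diamond lies nearer the carriers than 0, *Agtr1a* among them.

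H/W minus L-E and Line-A minus Line-C are the pairs of parents and of lines, and they share no array. H/W minus L-E had 527 calls (3.31%) and Line-A minus Line-C 222 (1.39%). Both were called for 57 ProbeSets, of which 25 (0.157% of all ProbeSets) had 1 direction (4.74% of the first list and 11.3% of the second) and 32 had opposite directions. The difference between both pairs was itself called for 320 ProbeSets (2.01%), and 91 of these were among the 676. The additive genetic model with an *Ahr* term, in which each line draws equally on its parents, called 105 ProbeSets (0.659%). In this design the *Ahr* term is algebraically Line-A minus Line-C, with weights of 1 and -1 for those lines and 0 for H/W, L-E and S-D. In 61 of the 105, H/W minus L-E had the opposite sign to Line-A minus Line-C. Over all ProbeSets, 62.2% had the same sign in both pairs. The contrast shared 57 of the 105 in direction, and called 4 in the opposite direction.

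**Figure D4:**
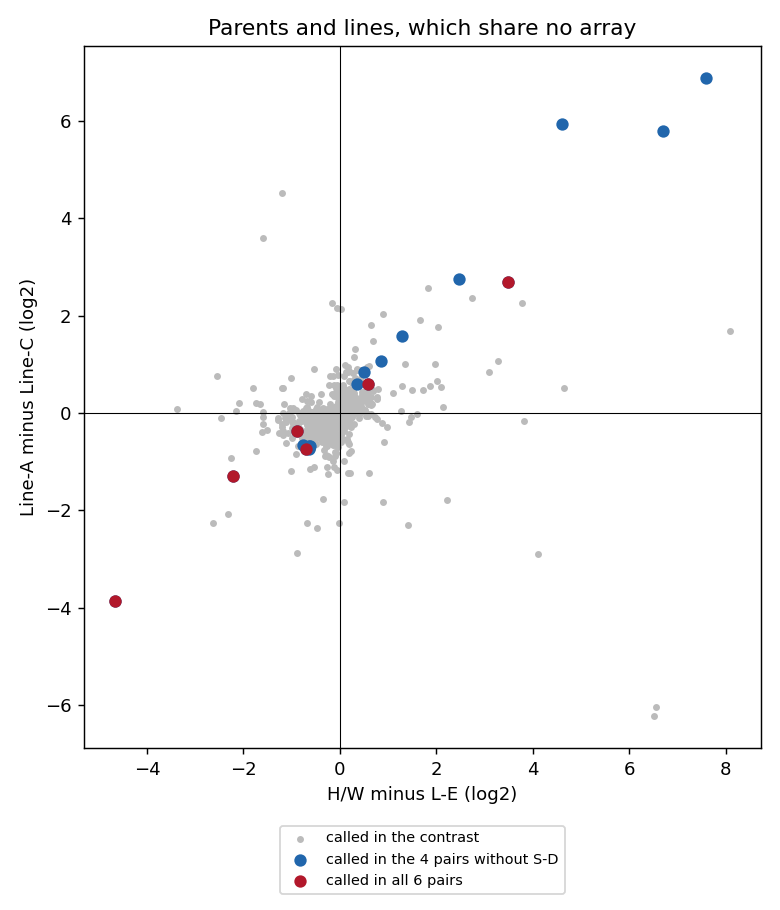
H/W minus L-E (horizontal axis, log2) against Line-A minus Line-C (vertical axis, log2), which share no array. Grey points are ProbeSets called in the contrast, blue those called in the 4 pairs without S-D and red those called in all 6. Blue and red points lie in the quadrants where both pairs have 1 sign, as their rule requires, while grey points occur in all quadrants.

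Of 16 genes from the table of *Ahr*-dependent transcripts with a ProbeSet, 8 were called in the contrast, 3 higher and 5 lower, each gene scored on its ProbeSet of highest mean signal. *Rab14* counts as not called by this rule (1375687_at), although 1376796_at (0.69, limma adjusted p = 0.000102) and 1385314_at (1.62, limma adjusted p = 9.81e-05) were called. That table was chosen on these samples and is not independent evidence. *Lox*, the collagen cross-linking lysyl oxidase, was not called: 1368171_at had means of 9.28 in Line-A and 2.61 in Line-C, but 4.74 in H/W, 6.50 in L-E and 9.34 in S-D. *Itga1*, the integrin alpha 1 chain, had 3.67 in Line-A and 6.93 in Line-C, but 6.83 in H/W and 4.62 in L-E. *Sirt3*, a mitochondrial deacetylase, had 7.27 in Line-A and 4.99 in Line-C, but 6.43 in H/W and 7.29 in L-E. In these 3 genes the group means of the parents did not follow those of the lines. For *Lox* the H/W arrays were split, from 2.42 to 8.23, and H/W minus L-E was not called (-1.76, limma adjusted p = 0.315).

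*Ahr* was under the expression limit on both ProbeSets and was not called, and none of 13 AHR partners was called. Of 15 genes of the AHR target battery, 2 were called (13.3%, against 4.76% of all genes). The median difference of this list was 0.219, against 0.029 over all genes. *Hmox1*, heme oxygenase 1, was lower (-0.98, limma adjusted p = 0.00229), although Line-A (5.65) lay above Line-C (5.45). *Cyp1a2* was higher by 0.27 (limma adjusted p = 0.0221), with S-D at 13.49 and the other groups between 14.25 and 14.38. *Cyp1a1* was not called, with means of 3.73 and 4.56 in the carriers and 3.15, 3.91 and 2.56 in L-E, Line-C and S-D. Its signal varied widely among rats, from 1.685 to 7.63 within H/W. None of 19 cholesterol synthesis genes, 16 clock genes, 24 nuclear receptors or 9 hepatocyte markers was called, against 4.76% of 10412 genes with 1 ProbeSet each. At that share, lists this short would hold few calls or none. The lack of calls in them and in the AHR partners is therefore not read as a result.

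Kupffer cell and macrophage markers were called lower in carriers in 9 of 9 cases, against 4.76% of all genes called in either direction. These markers had a median difference of -0.59 against 0.03 over all genes. They were *Cd14*, *Lyz2*, *Cd68*, *Clec4f*, *C1qa*, *C1qb*, *C1qc*, *Csf1r* and *Aif1*. The mean marker level ran from 7.34 to 7.48 in Line-A and from 7.76 to 8.07 in H/W, against 7.93 to 8.54 in L-E, 8.05 to 8.33 in Line-C and 8.19 to 8.62 in S-D. Line-A lay below all other groups, whereas H/W overlapped L-E and Line-C. None of the 9 was called in all 6 pairs over the whole array: *Csf1r* and *C1qa* were called in 4 pairs, and the others in 2 or 3. H/W minus L-E was called for *Csf1r* alone, and Line-A minus Line-C for *Cd14*, *Lyz2* and *C1qa*. S-D had the highest group mean in *Cd68*, *Clec4f*, *C1qa*, *C1qb*, *C1qc* and *Aif1*, but not in *Csf1r*, *Cd14* or *Lyz2*. *Clec4f*, the Kupffer cell lectin receptor, was called in 3 pairs, with means of 9.72 and 9.55 in H/W and Line-A against 10.23, 10.18 and 10.27. *Lyz2*, lysozyme, was low only in Line-A (7.22), with H/W at 9.11 and the wild-type groups between 8.67 and 9.04. Markers of other non-parenchymal cells had fewer calls, all lower, to be read against the same 4.76% of all genes. Called were 2 of 5 for cholangiocytes (*Slc4a2*, -0.71, and *Epcam*, -0.60) and 2 of 8 for endothelium (*Lyve1*, -0.34, and *Kdr*, -0.30). For stellate cells and fibroblasts 2 of 13 were called (*Col1a2*, -0.73, and *Col3a1*, -0.60). The list medians, in this order, were -0.004, -0.134 and -0.042. S-D also had the highest group mean in *Epcam* (6.45), *Lyve1* (8.24) and *Kdr* (10.19). For these and the Kupffer cell markers alike, S-D cannot be told apart from its scan day and operator. Lists of blood cells had no call and few members over the expression limit. Their medians were 0.039 for T and NK cells, 0.046 for B cells, 0.252 for erythroid cells and 0.094 for neutrophils and mast cells. In bulk liver RNA, fewer cells of a type and less of each transcript per cell cannot be told apart, and the part of Kupffer cells in the lower *Hfe* signal was not tested.

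**Figure D5:**
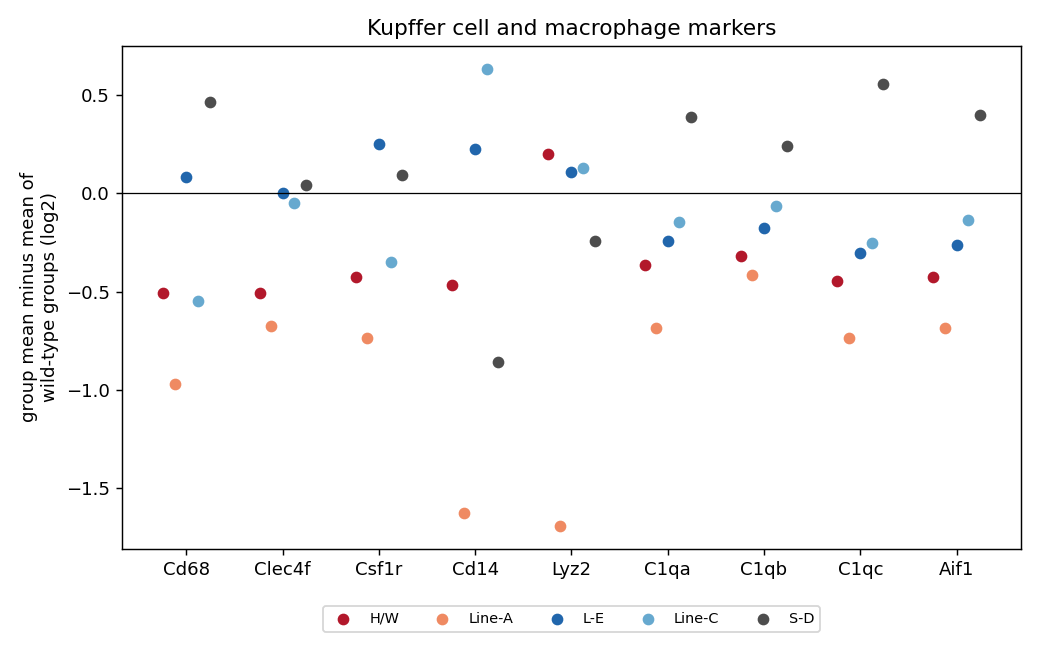
Group mean minus the mean of the wild-type groups (vertical axis, log2) for 9 Kupffer cell and macrophage markers (horizontal axis). Colours are the 5 groups. Line-A is the lowest group in every marker, and in *Cd14* and *Lyz2* H/W lies far above it.

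Over all genes, 496 of 10412 (4.76%) were called, 300 lower and 196 higher, and the lists below are read against that share. Of 29 MHC and antigen presentation genes 8 were called, 7 of them lower, among them *Cd74*, the class II invariant chain (-0.62), and *RT1-Da*, a class II alpha chain (-0.85). In *RT1-Da* S-D had the highest mean (10.39) and Line-C (8.85) lay below H/W (8.96). Of 38 extracellular matrix genes 7 were called, 6 of them lower. The collagens *Col1a2* and *Col3a1* were among these, and in both S-D was the high group (6.46 and 10.85) while L-E lay below both carriers. Of 32 adhesion genes 9 were called, 7 of them lower. Of 23 fatty acid synthesis genes 3 were called, all higher: *Fasn*, fatty acid synthase (1.47), *Thrsp*, a lipogenic regulator (1.36), and *Acaca*, acetyl-CoA carboxylase (0.72). *Fasn* was highest in Line-A (11.82), then H/W (10.37), with 9.72, 10.01 and 9.13 in L-E, Line-C and S-D. For *Fasn* and *Acaca* no pair with H/W was called, and the called pairs (3 and 2) were all of Line-A. The *Acaca* mean in H/W (9.46) lay below that in Line-C (9.62).

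Several called differences outside the 6 did not follow the allele by group means. *Bco1*, the beta-carotene oxygenase (-1.79), was low in H/W alone (4.37), with Line-A at 7.33 and the wild-type groups between 7.24 and 7.93. *Ugt2b* on 1387825_at, a glucuronosyltransferase (-1.74), lay under the expression limit in L-E (3.66) and H/W (3.64) and at 13.52, 13.55 and 13.76 in Line-A, Line-C and S-D. *Ephx2*, soluble epoxide hydrolase (1.16), was called higher with S-D at 4.16, while L-E (10.38) and Line-C (9.61) exceeded both carriers (9.19 and 9.23). *Igfbp1*, an insulin-like growth factor binding protein (-2.15), did follow the allele by group means, at 3.90 and 3.57 in the carriers, both means under the expression limit, and 6.22, 5.64 and 5.80 in the wild-type groups, but was called in only 2 pairs, and single arrays ran from 2.59 to 5.35 in carriers and from 4.47 to 7.51 in wild-type groups, which overlap.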

How the data were processed

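Liver RNA of 20 rats had been hybridised to Affymetrix RAE230A arrays. The log2 signals were deposited by the authors after GC-RMA, and the submitters' processing notes name R 2.6.1, affy 1.12.0 and GCRMA 2.10.0. No value was missing and no pair of arrays was identical. A linear model with a mean per group was fitted with limma 3.58.1 (statmod 1.5.0, R 4.3.3) to all 15923 ProbeSets, with Benjamini-Hochberg adjustment and a 5% FDR. A ProbeSet held in all 6 pairs when every pair was called in 1 direction. Scan days, chip lots, operators and stations came from the array headers. The model was tested on simulated data that held no strain, line or scan-day differences, so that test does not bear on such differences. p-values measure the spread among rats of a group, not among strains.

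The 12789 ProbeSets with 1 gene symbol were named from the platform annotation, and those with several symbols (312) or none (2822) were not. In lists, a gene was represented by its ProbeSet of highest mean signal. Named genes were those held in all 6 pairs, those of the table of *Ahr*-dependent transcripts, up to 4 called members of each list with all AHR partners and targets, the 10 highest and 10 lowest differences outside the 6 and their other ProbeSets; the further transcripts of the 4 pairs without S-D were picked with their values in view. The members and lists were chosen with earlier results of these data known. Alternatives were other samples, models, batch and replicate blocks, filters, variance settings, scalings and thresholds, and leaving out each array.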

Additional observations from a re-analysis of the deposited data

Results flagged for a closer look

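Within a group of 4 arrays, 15 of 220 sets of values (44 ProbeSets in 5 groups, 6.82%) had an array whose gap to its nearest neighbour was unusually large by Dixon's test, against about 5% by chance. For *Acat1* (1367763_at) L-E replicate 2 stood at 10.79, with the nearest array at 10.51. In *Acat1* (1367763_at) S-D replicate 1 stood at 10.51, with the nearest array at 10.74. On *Cyp2c12* (1368155_at) H/W replicate 1 stood at 7.17, with the nearest array at 6.32. For *Cyp2c12* (1368155_at) L-E replicate 2 stood at 11.53, with the nearest array at 11.02. In *Cd14* (1368490_at) S-D replicate 1 stood at 7.54, with the nearest array at 8.92. On *Aif1* Line-A replicate 2 stood at 6.35, with the nearest array at 5.95. For 1371237_a_at Line-C replicate 1 stood at 11.65, with the nearest array at 13.58. In *Dsc2* (1375936_at) S-D replicate 3 stood at 8.42, with the nearest array at 9.25. On *C1qa* Line-C replicate 3 stood at 8.72, with the nearest array at 9.02. For *Rab14* (1376796_at) H/W replicate 2 stood at 8.08, with the nearest array at 8.38. In *Rab14* (1385314_at) L-E replicate 4 stood at 3.35, with the nearest array at 4.11. On *RT1-N2* (1387839_at) H/W replicate 2 stood at 5.08, with the nearest array at 8.74. For *RT1-N2* (1387839_at) S-D replicate 1 stood at 3.90, with the nearest array at 3.61. In *Csf1r* S-D replicate 1 stood at 6.85, with the nearest array at 6.93. On 1389986_at Line-C replicate 4 stood at 3.27, with the nearest array at 4.14.

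The H/W minus L-E and Line-A minus Line-C differences were themselves different, by the limma interaction, in 9 of the 44 ProbeSets. In *Agtr1a* (1369291_at) it was 0.92 (limma adjusted p = 0.00316). *Bco1* (1369430_at) had a value of -3.46 (limma adjusted p = 8.37e-08). A value of 1.92 was found in *Lyz2* (1370154_at) (limma adjusted p = 0.00162). In 1370425_at it was 6.40 (limma adjusted p = 2.88e-05). *Dsc2* (1375936_at) had a value of 1.98 (limma adjusted p = 0.0179). A value of -0.50 was found in *Slco1b2* (1387679_at) (limma adjusted p = 0.0336). In *RT1-N2* (1387839_at) it was -5.70 (limma adjusted p = 0.00149). *Olr59* (1387981_at) had a value of -5.19 (limma adjusted p = 3.48e-05). A value of 0.79 was found in *Sqor* (1389142_at) (limma adjusted p = 0.0242).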

How the results depend on the processing

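The allele was carried by 2 populations, so limma's spread among rats says little about spread among strains. With strain or line as a random block the contrast called 1 ProbeSet (382 at an unadjusted p under 0.05), and with the 5 group means it called 0 (393 at an unadjusted p under 0.05). With 8 arrays against 12 and no group terms it called 28; the differences were the same, because every group had 4 arrays, and the spread then held the differences between groups. Without the S-D arrays it called 193, and within scan days, a fit that also left out S-D, 184. By the genetic model it called 105 and at 1% FDR 271. Leaving out each array gave 466 (without Line-A replicate 4) to 7851 (without H/W replicate 3), the next highest being 693, and array weights gave 7448. Without H/W replicate 3 and with a mean of at least 4 it gave 1051.

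The number held in all 6 pairs was 2 with scan day as a random block (*Sqor* and *Slco1b2*), 1 at 1% FDR, 1 with the largest p-value adjusted, 2 with no call among carriers or among wild-type groups, 18 in the 4 pairs without S-D, 15 in those without L-E, 50 in those without Line-C and 11 without H/W replicate 3 at a mean of at least 4. Leaving out each array gave 2 to 6, with 2 without Line-A replicate 4 and 3 without Line-A replicate 1, Line-C replicate 2 or S-D replicate 2 or 3. The parents against lines count ran from 248 to 390.

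Replicate numbers did not pair the samples: same-numbered arrays had deviations correlated from -0.341 to 0.216. The replicate block gave 600, 7 and 290 calls. In the genetic model *Bco1* (0.0816), *Xiap* (0.0275) and 1389986_at (0.504) reversed. The cause of these changes was not tested, except where the settings used fewer samples. The number of arrays limits the precision, and signals under 4 are near background.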

Other observations

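Gene order came from the GRCr8 annotation. On the chromosome that holds *Ahr*, 19 of 438 genes were called in the contrast (4.34%), against 4.76% of all 10379 placed genes, and none of the 8 nearest array genes on either side of *Ahr* was called. Most of these neighbours had a mean under the expression limit. At the share over all genes, so few genes would hold few calls or none, so this is not read as a result. Some of the transcripts held in 4 or 6 pairs shared a chromosome. *Cyp2c12* and *Cyp2c6v1*, members of 1 gene family, were at positions 1218 and 1216 among the array genes of their chromosome. *Sqor* and *Hypk* were at 436 and 425, and *Ctsh* and *Bckdhb* at 400 and 386. Whether the held genes lie closer together than other array genes was not tested. The genes whose signals followed *Agtr1a* most closely over the 20 arrays were *Rab14* (Pearson r = 0.955), *Marveld1* (0.952), *Bckdhb* (0.927), *Sqor* (0.874) and *Icam1* (0.87). These arrays share groups, so the correlations mostly describe group means.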
